A study of Rattus norvegicus with 16 samples.

Results

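Senescence and p53 cell-cycle brakes are described here by 6 genes, Cdkn1a, Cdkn2a, Cdkn2b, Cdkn2c, Mdm2 and Gdf15, which were picked by name from the 23552 genes of a gene expression table of rat knee cartilage. RNA was sequenced from 16 libraries, 4 in each of 4 groups. The first group was osteoarthritic cartilage that had received a coacervate together with cells and a drug, called the coacervate group below. The second was osteoarthritic cartilage that had received hyaluronic acid (HA) together with the same kinds of addition, cells and a drug, called the HA group. The third was osteoarthritic cartilage whose libraries carry the name PBS, and the fourth was healthy cartilage whose libraries carry the name Sham. All rats are labelled as 10 weeks old. The labels name neither the drug, the cells, the make-up of the coacervate nor how the arthritis was brought about. They do not say that replicates came from separate animals, so the p-values measure only the spread between these samples.

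These genes belong to the arms by which a cell stops dividing. p53, when stabilised by damage or stress, switches on Cdkn1a, whose product p21 blocks cyclin-dependent kinases, and Mdm2, whose product marks p53 for destruction and so closes a feedback loop. The INK4 inhibitors encoded by Cdkn2a (p16INK4a), Cdkn2b (p15INK4b) and Cdkn2c (p18INK4c) block the cyclin D kinases and keep the retinoblastoma protein active, and Cdkn2a also encodes ARF, which restrains Mdm2. Gdf15 encodes a secreted stress cytokine that p53 and the integrated stress response both induce. In cartilage, p16INK4a and p21 are in wide use as markers of senescent chondrocytes, which release proteases and chemokines into the joint.

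The 6 genes lie at 5 places in the rn6 genome, and all are protein-coding in the deposited table. Cdkn1a (ENSRNOG00000000521) spans chr20:6351458-6358864 on the plus strand, Mdm2 (ENSRNOG00000006304) chr7:60719066-60743328 on the minus strand and Gdf15 (ENSRNOG00000019661) chr16:20555395-20557978 on the plus strand. Cdkn2c (ENSRNOG00000008956) spans chr5:129347732-129352886 on the minus strand. Cdkn2a (ENSRNOG00000059837, chr5:107823330-107841175) and Cdkn2b (ENSRNOG00000006735, chr5:107845951-107858104) are neighbours on the minus strand, 4775 bases apart.

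The promoter of Cdkn1a is shown because it holds the recognition motif of p53, the regulator that links Cdkn1a, Mdm2 and Gdf15. The sequence is from RefSeq (assembly GRCr8, chr20:7150682-7150981, plus strand, 5′ to 3′), and the capitals mark a pair of abutting p53 decamer motifs with 1 mismatch in all, starting 201 bases before the annotated start.
Cdkn1a promoter: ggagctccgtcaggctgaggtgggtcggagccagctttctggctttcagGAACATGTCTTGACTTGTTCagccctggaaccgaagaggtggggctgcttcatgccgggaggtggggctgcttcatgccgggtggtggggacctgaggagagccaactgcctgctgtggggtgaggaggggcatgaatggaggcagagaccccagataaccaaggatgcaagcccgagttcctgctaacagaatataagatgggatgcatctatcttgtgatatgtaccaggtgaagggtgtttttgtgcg
The motif equals its own reverse complement, so a search of 1 strand covered both. Such a pair was present in 24 of 33465 RefSeq windows of the same length (0.0717%). A single decamer without a mismatch was present in 2671 windows (7.98%), among them those of Cdkn1a and Cdkn2c, and in none of the windows of Mdm2, Gdf15, Cdkn2a or Cdkn2b. A match is a description and not a binding site.

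The deposited counts came to between 36988722 and 50725189 per library, with 18627 to 19457 genes above 0. Levels are given as normalised CPM (counts scaled by library size and the trimmed mean of M-values), or as the authors' FPKM, which is also per transcript length, where genes are set against each other. Of 20 chondrocyte markers, 19 passed the filter on low values, and these 19 were counted in all 16 libraries. The summed levels of all 20 were 4459 to 5195 CPM in the coacervate group, 4939 to 7221 in the HA group, 3119 to 7140 in the osteoarthritic group and 3294 to 5775 in the healthy group. Markers of erythroid cells, neutrophils, macrophages, B cells, skeletal muscle, osteoblasts, fibroblasts and endothelium were counted in every library too. Over the 16 libraries their sums were 9671 to 15081 CPM for erythroid, 7336 to 27754 for neutrophil and 10022 to 28614 for fibroblast markers. Osteoblast markers came to 9420 to 19121, macrophage markers to 5590 to 14357 and skeletal muscle markers to 4597 to 24332 CPM. B cell and endothelial markers were lower, at 343 to 928 and 333 to 637 CPM. Such sums depend on the genes listed, and the cell type behind each level reported here was not tested. Osteoarthritic replicates 2 and 3 stood apart from the rest, at 69.6 and 58.9 on a first principal component with 32.5% of the variance, where the other 14 libraries lay between -32.3 and 12.7. Haemoglobin genes took 22.2% and 21.7% of their counts, against 10.2% to 16.3% elsewhere. Because the tissue was sequenced in bulk, fewer cells of a type and less RNA per cell cannot be told apart.

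The 6 genes were present at very different levels, and the order was much the same in every group. Cdkn2c was the highest, at a mean of 21.9 FPKM over the 16 libraries, followed by Mdm2 at 18.4 FPKM; the ranges overlapped (16.5 to 25.5 and 16.8 to 20.4 FPKM), and Cdkn2c was the higher in 13 of 16 libraries. Cdkn1a averaged 6.32 FPKM and lay below Mdm2 in 16 of 16 libraries. Gdf15 averaged 3.87 FPKM and lay below Cdkn1a in 14 of 16. Cdkn2b and Cdkn2a came last, at means of 0.229 and 0.218 FPKM, each below Gdf15 in 16 of 16 libraries, and those 2 kept no order between them, with Cdkn2b the higher in 9 of 16. The filter for testing, at least 1 FPKM in at least 4 libraries, kept 14337 genes, among them Cdkn2c, Mdm2, Cdkn1a and Gdf15, and left out Cdkn2a and Cdkn2b, which were fitted among all 23255 genes with a count.

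**Figure D1:**
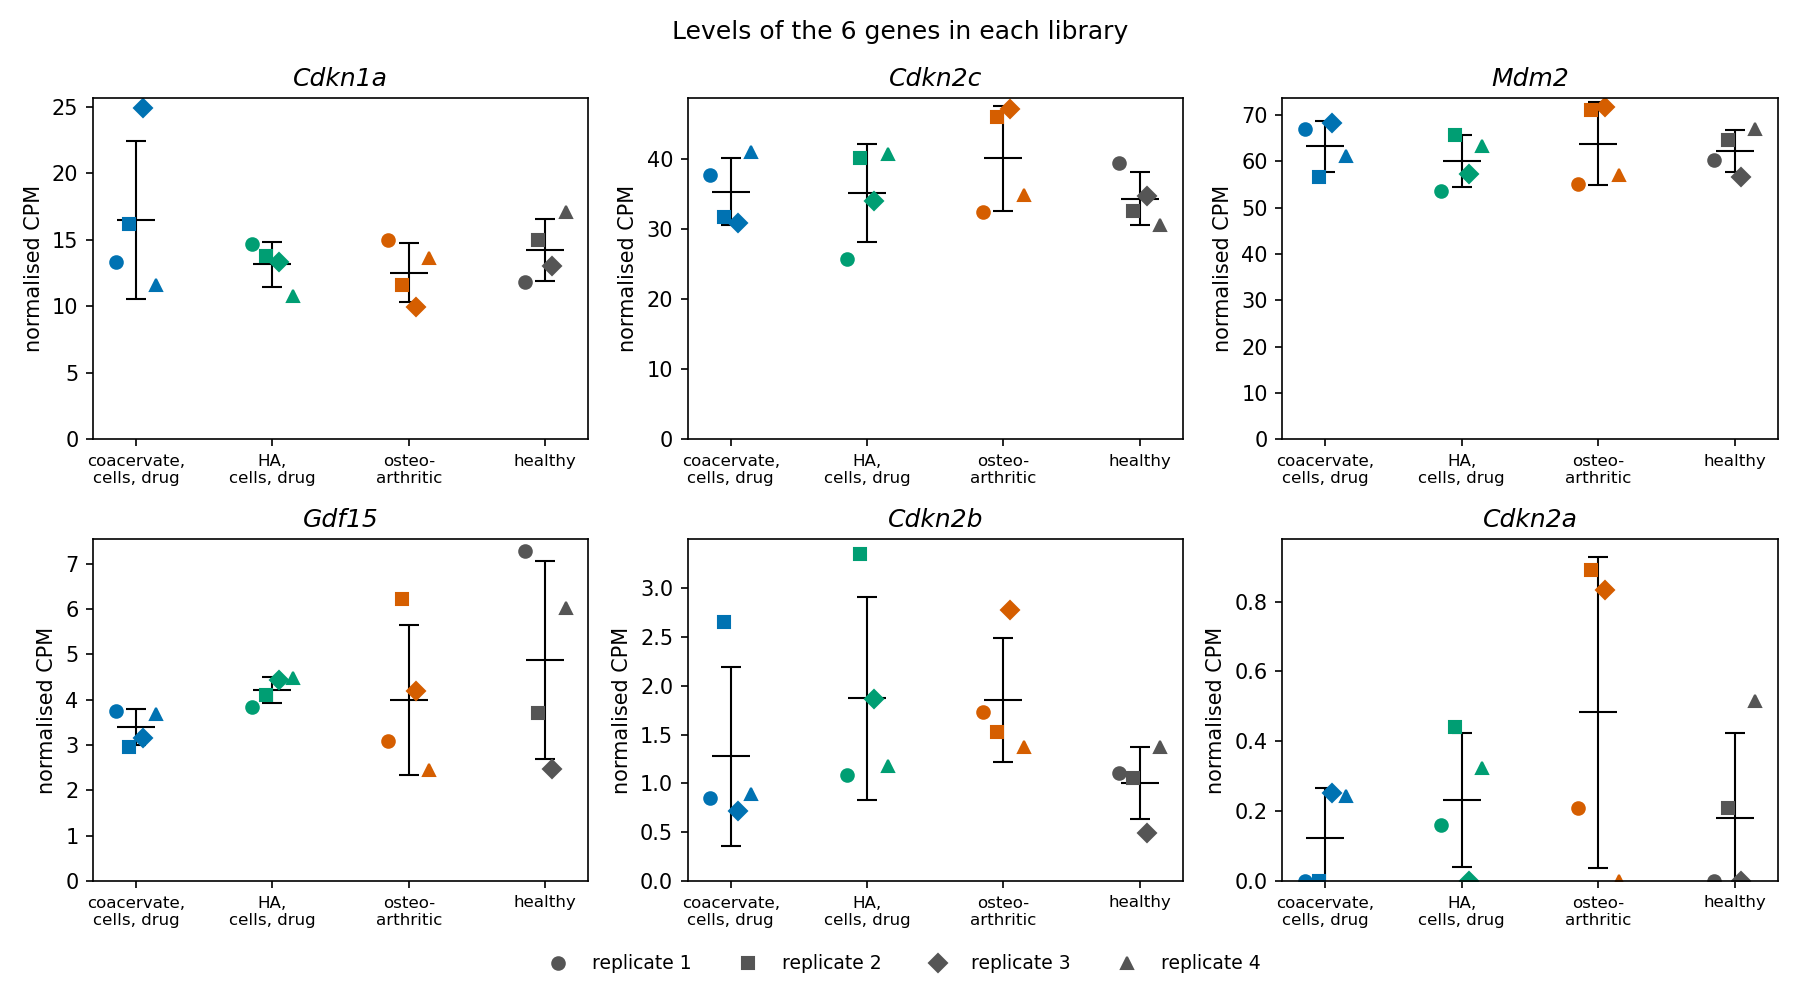
Normalised CPM of each gene (y axis, from 0) in each of the 16 libraries, by group, with 1 symbol shape per replicate number; the horizontal line is the group mean and the bar 1 SD (n = 4), drawn only down to 0. Every group overlaps every other for Cdkn1a, Cdkn2c and Mdm2, the high coacervate point for Cdkn1a is replicate 3 at 24.9 CPM, and Cdkn2a lies at 0 in 6 libraries.

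Cdkn1a, the p21 gene, was at 13.3, 16.2, 24.9 and 11.6 CPM in coacervate replicates 1 to 4. It was at 14.7, 13.8, 13.3 and 10.8 CPM in the HA group and at 15.0, 11.6, 9.96 and 13.6 CPM in the osteoarthritic group. In the healthy group it was at 11.8, 15.0, 13 and 17.1 CPM. All groups overlapped, and coacervate replicate 3 was the highest of the 16. The largest fitted difference was between the coacervate and the osteoarthritic group, with means of 16.5 ± 5.92 CPM and 12.6 ± 2.22 CPM (SD, n = 4 each), a log2 fold change of 0.40 ± 0.21 (SE) and a fold of 1.32 with a 95% interval of 0.963 to 1.8. It did not pass (edgeR quasi-likelihood test, Benjamini-Hochberg adjusted p = 0.279). Without coacervate replicate 3 the log2 fold change was 0.13 (edgeR, adjusted p = 0.723), and without osteoarthritic replicates 2 and 3 it was 0.21. Coacervate replicate 3 also had the highest summed level of the 15 skeletal muscle markers tested, 24332 CPM, where the other 15 libraries had 4597 to 11699 CPM; the part of muscle RNA in its Cdkn1a level was not tested.

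Cdkn2c, the p18INK4c gene, was at 37.8, 31.8, 30.9 and 41.0 CPM in the coacervate group. It was at 25.7, 40.2, 34.1 and 40.7 CPM in the HA group and at 32.4, 46.0, 47.1 and 34.9 CPM in the osteoarthritic group. In the healthy group it was at 39.5, 32.6, 34.8 and 30.6 CPM. The groups overlapped, and the highest values were those of the libraries that stood apart, osteoarthritic replicates 2 and 3. On the FPKM scale the same libraries were at 22.7 and 24.3, inside the range of the HA group (16.5 to 25.5 FPKM). The osteoarthritic group averaged 40.1 ± 7.55 CPM and the healthy group 34.3 ± 3.81 CPM (SD, n = 4 each), a log2 fold change of 0.22 ± 0.16 (edgeR, adjusted p = 0.471), which was -0.035 without osteoarthritic replicates 2 and 3. Over the 6 comparisons the 95% intervals of the fold ran from 0.692 to 1.48.

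Cdkn2b, the p15INK4b gene that TGF-beta signalling is known to induce, was near the lower end of what was counted. It was at 0.851, 2.65, 0.716 and 0.891 CPM in the coacervate group, at 1.09, 3.35, 1.86 and 1.18 CPM in the HA group, at 1.73, 1.53, 2.78 and 1.37 CPM in the osteoarthritic group and at 1.11, 1.05, 0.491 and 1.37 CPM in the healthy group. The osteoarthritic and healthy groups touched without overlapping, the lowest osteoarthritic and the highest healthy value both rounding to 1.37 CPM, and all other pairs of groups overlapped. The groups of 4.77% of all genes with a count did not overlap in that comparison either. The deposited FPKM did overlap, at 0.19 to 0.36 in the osteoarthritic and 0.08 to 0.21 in the healthy group. The log2 fold change was 0.90 ± 0.47 (SE) against healthy cartilage in the osteoarthritic group and likewise 0.90 ± 0.47 in the HA group, with edgeR adjusted p of 0.411 and 0.737. These comparisons share the healthy libraries.

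Cdkn2a, the p16INK4a and ARF gene, was listed at 0 in 6 of 16 libraries. Its counts were 0, 0, 12 and 12 in the coacervate group, 8, 22, 0 and 15 in the HA group, 10, 36, 35 and 0 in the osteoarthritic group and 0, 11, 0 and 24 in the healthy group, summing to 24 in the coacervate, 45 in the HA, 81 in the osteoarthritic and 35 in the healthy group. Every group held at least 1 library at 0, and 71 of the 81 osteoarthritic counts came from replicates 2 and 3, the libraries that stood apart. With an upper limit of 3 counts, a 0 here allows up to 0.0594 to 0.0775 CPM, for counting error only. The lowest count above 0 was 8, although the mean was 11.56; among 1940 genes with a mean count of 5 to 20, such a gap (at least 3 libraries at 0 and no other count below 8) was found in 54 genes (2.78%). The log2 fold change of the osteoarthritic against the healthy group was 1.42 with a 95% interval of -1.66 to 4.50 (edgeR, adjusted p = 0.675), and -0.79 without osteoarthritic replicates 2 and 3, so neither a rise nor a fall was detectable in these libraries.

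Mdm2, the p53 ubiquitin ligase, was the steadiest of the 6. It was at 67.1, 56.6, 68.3 and 61.1 CPM in the coacervate group and at 53.7, 65.8, 57.3 and 63.4 CPM in the HA group. In the osteoarthritic group it was at 55.1, 71.2, 71.8 and 57.0 CPM, and in the healthy group at 60.4, 64.7, 56.7 and 66.9 CPM. The groups overlapped throughout, with means of 63.3 CPM in the coacervate, 60.1 in the HA, 63.8 in the osteoarthritic and 62.2 in the healthy group, and the 95% intervals of the fold ran from 0.801 to 1.24 over the 6 comparisons. The group means spanned 0.08 on the log2 scale, and 3.1% of the tested genes had a smaller span; the SD within groups was 0.15, and 15.2% of genes had a smaller one. The osteoarthritic group stood 0.04 above the healthy group on the log2 CPM scale. When FPKM was fitted with limma the log2 fold change was -0.10, on a scale where the median of all genes moved by -0.123 (pseudocount of 1) and -0.145 (pseudocount of 0.1), so the sign of Mdm2 there moved with all genes.

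Gdf15, the stress cytokine, was at 3.76, 2.95, 3.16 and 3.69 CPM in the coacervate group and at 3.85, 4.11, 4.43 and 4.47 CPM in the HA group. It was at 3.09, 6.23, 4.19 and 2.44 CPM in the osteoarthritic group and at 7.29, 3.70, 2.48 and 6.02 CPM in the healthy group. Both treated groups were narrow and lay side by side without overlapping, while the osteoarthritic and healthy groups covered the range of both. The coacervate group averaged 3.39 ± 0.397 CPM and the HA group 4.22 ± 0.289 CPM (SD, n = 4 each), a log2 fold change of -0.31 ± 0.31 (SE) that did not pass (edgeR, adjusted p = 0.808). The groups of 9.71% of tested genes did not overlap in that comparison. The fit took one estimate of spread over all 4 groups, and with the 8 libraries of this pair alone the log2 fold change was again -0.31 (edgeR, adjusted p = 0.355). The lowest log2 fold change against healthy cartilage in the main fit was that of the coacervate group, at -0.52 ± 0.31 (edgeR, adjusted p = 1.0). The osteoarthritic group was at -0.29 ± 0.31 against healthy cartilage (edgeR, adjusted p = 0.626). Without osteoarthritic replicates 2 and 3 that value was -0.82 (edgeR, adjusted p = 0.271).

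Across the 6 comparisons none of the 6 genes passed the test, and none had an unadjusted p under 0.05 in the main edgeR test. Between the osteoarthritic and the healthy group, the comparison that asks what the disease changed, 0 of the 6 passed, where 72 of 14337 tested genes did (0.502%). Between the HA and the osteoarthritic group 0 of the 6 passed, as did 0 of all tested genes (0.0%), with 909 genes (6.34%) at an unadjusted p under 0.05. Between the coacervate and the osteoarthritic group 0 of the 6 passed, against 21 of all tested genes (0.146%). Between the coacervate and the HA group, which differ in the carrier, 0 of the 6 passed, as did 0 of all tested genes (0.0%), with 1485 (10.4%) at an unadjusted p under 0.05. Against healthy cartilage, 0 of the 6 passed in the HA group, where 23 of all tested genes passed (0.16%) and 8.25% had an unadjusted p under 0.05. In the coacervate group 0 of the 6 passed against healthy cartilage, as did 0 of all tested genes (0.0%), with 552 (3.85%) at an unadjusted p under 0.05. In the fit of all genes with a count, from which Cdkn2a and Cdkn2b were read, 0.194% of genes passed in the osteoarthritic against the healthy group, 0.0301% in the HA against the healthy group and 0.0% in the other 4 comparisons. Groups did not overlap for 1 member in the osteoarthritic against the healthy group, Cdkn2b, which was below the filter. The same was so there for 4.77% of all genes with a count and 6.33% of tested genes. Groups also did not overlap for 1 tested member in the coacervate against the HA group (Gdf15), where 9.71% of tested genes did not. They overlapped for every member in the HA and the coacervate against the osteoarthritic group and in the HA and the coacervate against the healthy group, where 1.9%, 5.6%, 9.83% and 3.66% of tested genes did not. Among all genes with a count these shares were 1.65%, 4.24%, 7.0% and 3.0%. DESeq2, which called between 8 and 795 genes in these comparisons, and limma on the log2 FPKM scale likewise called none of the members in any of them, although DESeq2 gave Cdkn2a no adjusted p in the osteoarthritic against the healthy, the coacervate against the osteoarthritic and the coacervate against the HA group. The smallest adjusted p of any member in any setting was 0.144, for Cdkn1a in the coacervate against the osteoarthritic group without osteoarthritic replicate 1. A p that misses the threshold does not show that the groups were alike; the intervals in the plot of fold changes give the sizes that remain possible.

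**Figure D2:**
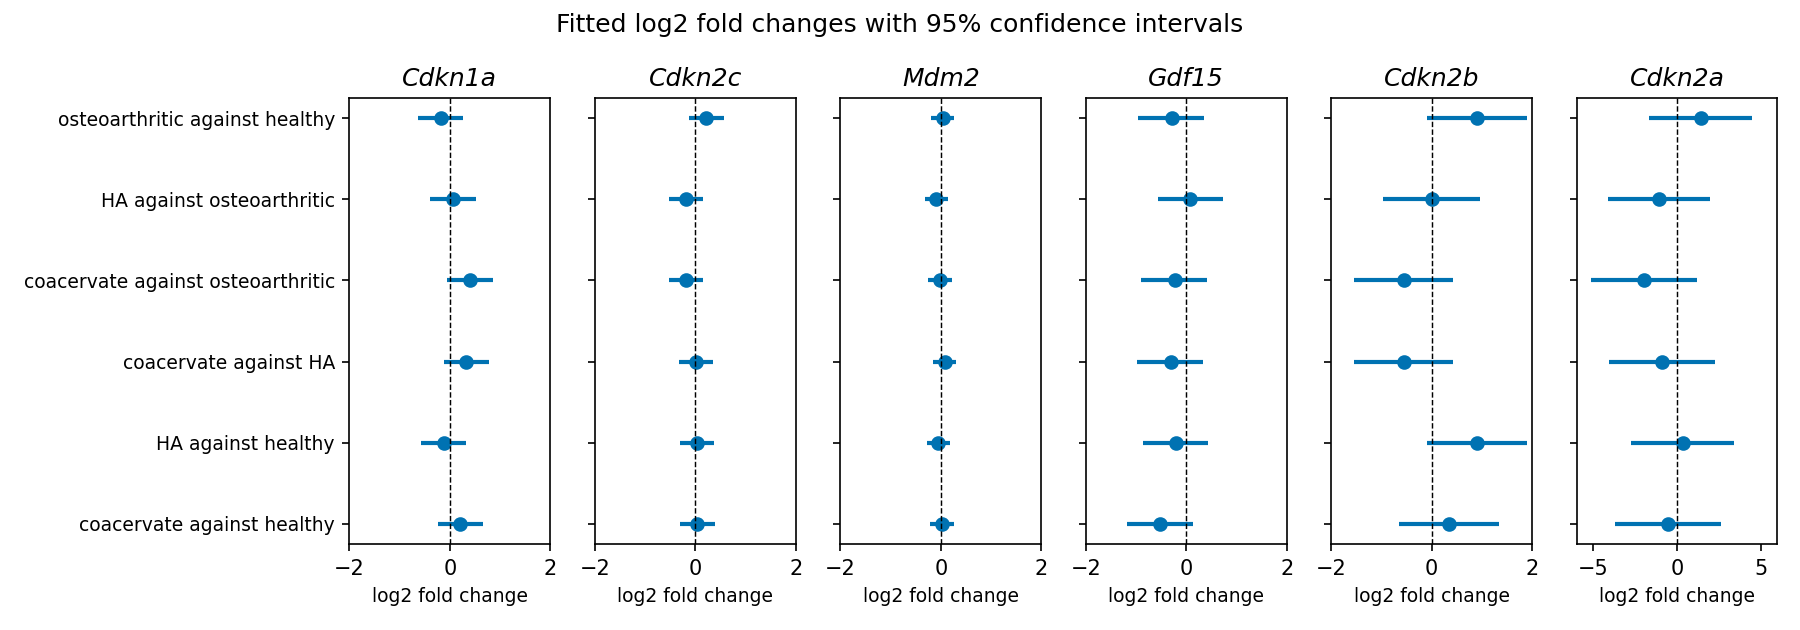
Fitted log2 fold change (x axis; points) with its 95% confidence interval (lines) for each gene and each of the 6 comparisons, first-named group over second; Cdkn2a has a wider axis. Every interval holds 0, and the intervals are narrowest for Mdm2 and widest for Cdkn2a, whose osteoarthritic against healthy interval runs from -1.66 to 4.50.

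The SD of log2 levels within groups was 0.31 for Cdkn1a, 0.24 for Cdkn2c and 0.46 for Gdf15, where the median of tested genes was 0.26. To see which libraries were high or low together, levels were correlated over the 14 libraries other than osteoarthritic replicates 2 and 3, with 46 relations in the family (6 pairs of members, and 10 marker lists against 4 members). The p of Pearson's r and of Spearman's rho were adjusted separately, each over the 46, and no relation passed by both. Libraries with more Cdkn1a had less Cdkn2c: Spearman's rho was -0.82 (permutation p = 0.0006, adjusted 0.0276) and Pearson's r -0.64 (permutation p = 0.0144, adjusted 0.149). Pearson's r was -0.71 without the 2 libraries farthest from the median of Cdkn1a, and -0.71 after group means were taken out. No other pair of members passed. Cdkn2c ran with the mean level of 25 proliferation genes (rho 0.74, permutation p = 0.00398, adjusted 0.047; r 0.70, permutation p = 0.00496, adjusted 0.114; r 0.66 without the 2 farthest). Cdkn1a ran the other way against the same genes (rho -0.73, permutation p = 0.00369, adjusted 0.047; r -0.53, permutation p = 0.05, adjusted 0.256; r -0.52 without the 2 farthest).

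**Figure D3:**
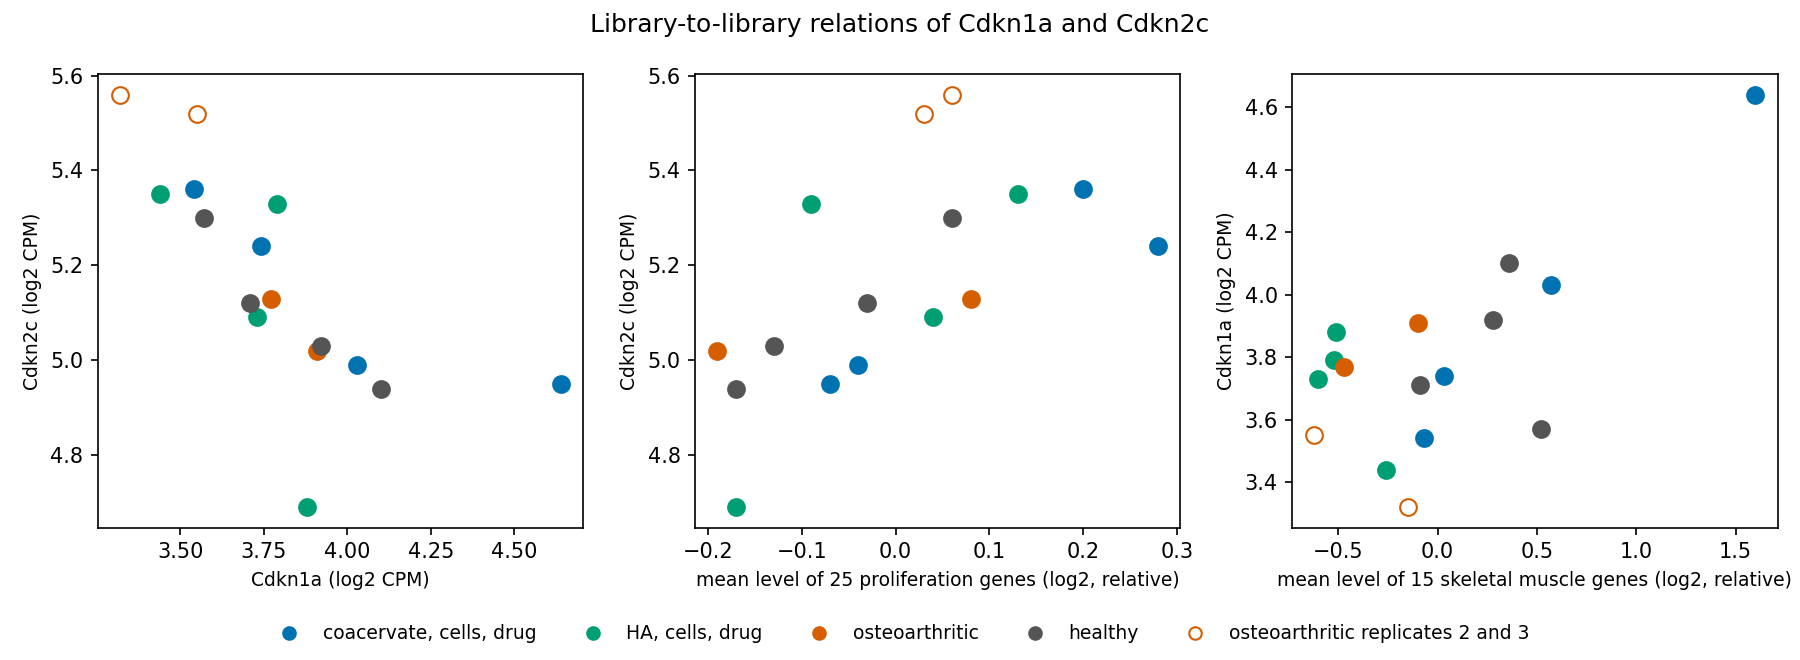
Each point is 1 of the 16 libraries, coloured by group, with osteoarthritic replicates 2 and 3 as open points; the first panel sets Cdkn2c against Cdkn1a (both log2 CPM), the middle one Cdkn2c against the mean log2 level of 25 proliferation genes, and the last Cdkn1a against that of 15 skeletal muscle genes. Cdkn2c is lower where Cdkn1a is higher (rho -0.82 over the 14 filled points), and coacervate replicate 3 lies alone at the right of the last panel.

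Other cell types moved with the same libraries. The mean level of 8 endothelial markers ran with Cdkn1a (r 0.81, permutation p = 0.00046, adjusted 0.0212; rho 0.61, permutation p = 0.0248, adjusted 0.199; r 0.60 without the 2 farthest) and against Cdkn2c (rho -0.73, permutation p = 0.00409, adjusted 0.047; r -0.59, permutation p = 0.0252, adjusted 0.193; r -0.52 without the 2 farthest). Their part in the relation of Cdkn1a and Cdkn2c was not tested. For skeletal muscle markers and Cdkn1a, r was 0.70 (permutation p = 0.0131, adjusted 0.149) and rho 0.41 (permutation p = 0.15, adjusted 0.523), and r was 0.11 without coacervate replicates 3 and 2, so that relation rests on those libraries. Among 8454 well-expressed named genes, those most like Cdkn1a over the 16 libraries were Bag3, a co-chaperone of stressed muscle (r 0.92), Gpd2 (r 0.90) and Kif1c (r 0.89). Those most like Cdkn2c were Pspc1 (r 0.93), the mitotic kinase gene Cdk1 (r 0.92) and Ift80 (r 0.90). Those most like Mdm2 were Pcnp (r 0.92), Hist3h2ba (r 0.90) and Atp5f1c (r 0.90). Those most like Gdf15 were Mcu, the mitochondrial calcium channel gene (r 0.82), Akr1c14 (r 0.80) and Pim1 (r 0.79). Each of these r over the 14 libraries was 0.75 to 0.91. They describe libraries that share depth and cell make-up, and carry no test.

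No gene of 6 further pathway lists passed in the main edgeR test. Of 38 further p53 targets tested, 0 passed in each of the 6 comparisons, and their median log2 fold change lay between -0.06 and 0.03, beside an all-gene median of -0.01 to 0.01. The same held for 23 CDK inhibitor and retinoblastoma genes, 22 regulators of p53 and Cdkn2a, 24 genes of the senescent cell state, 22 genes of the integrated stress response and 25 proliferation genes: 0 passed, with medians between -0.13 and 0.15. The number of p53 targets at an unadjusted p under 0.05 was 9 in the osteoarthritic against the healthy group and 9 in the coacervate against the osteoarthritic group. Over all tested genes that share was 17.8% and 21.8%. limma on log2(FPKM + 1) called 0 genes of these 6 lists in every comparison. Without osteoarthritic replicates 2 and 3, edgeR called the p53 target Sulf2 and the stress response gene Psat1 in the osteoarthritic against the healthy group, and Fuca1 of the senescent cell state in the coacervate against the HA group. In that fit 164 and 149 of all 14337 tested genes were called in the same comparisons. DESeq2 called 2 p53 targets in the osteoarthritic against the healthy group (Cdip1 and Sertad1), and in the coacervate against the osteoarthritic group 5 p53 targets (Bax, Cdip1, Fas, Phlda3 and Sertad1), 2 CDK inhibitor and retinoblastoma genes (Cdk2 and Cdkn1c) and 3 genes of the senescent cell state (Fuca1, Plaur and Terf2). Over all 14337 tested genes DESeq2 called 422 in the first of these comparisons and 795 in the second.

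Single genes of the pathway were read whatever their p. Cdkn1c, the p57 inhibitor of the same family as p21, was at 13.6 to 18.4 CPM in the coacervate group and 23.1 to 26.3 CPM in the osteoarthritic group. Those ranges did not overlap, which was so for 5.6% of tested genes, and the log2 fold change of -0.65 ± 0.17 did not pass (edgeR, adjusted p = 0.105), although DESeq2 called it (adjusted p = 0.0158) and edgeR did without osteoarthritic replicate 1 or 4 (adjusted p = 0.0381 and 0.0432). Ccng1, a p53 target that feeds back on it, was at 162 to 296 CPM in the coacervate group and 119 to 165 CPM in the HA group. Its log2 fold change was 0.58 ± 0.18 (edgeR, adjusted p = 0.197). Atf4, the transcription factor of the integrated stress response, was at 233 to 516 CPM in the osteoarthritic group and 237 to 297 CPM in the healthy group, with a log2 fold change of 0.46 ± 0.20 (edgeR, adjusted p = 0.259). Mki67, a marker of dividing cells, was at 1648 to 1700 CPM in the coacervate group, 1061 to 1419 in the HA group, 700 to 1829 in the osteoarthritic group and 1163 to 1536 in the healthy group. The coacervate range did not overlap that of the HA or the healthy group, which was so for 9.71% and 3.66% of tested genes. The log2 fold change of Mki67 in the coacervate group was 0.51 ± 0.22 against the osteoarthritic and 0.41 ± 0.22 against the HA group (edgeR, adjusted p = 0.202 and 0.547). Against the healthy group it was 0.28 ± 0.22 and did not pass. Mdm4, Cdkn1b, Rb1, Ccnd1, Cdk4, Cdk6, Lmnb1, Ddit3 and Atf3 did not pass in any of the 6 comparisons either, and Cdkn2d was not analysed here.

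Calls were made in the list of secreted genes. That list was drawn up with earlier results of these data known, so its share of calls is no test of enrichment. Of 37 genes tested for proteases, chemokines and cytokines that senescent cells are known to release, 4 rose and 0 fell in the osteoarthritic against the healthy group, where 0.391% of all tested genes rose; the median was 0.30, beside 0.01 over all tested genes. They were the stromelysin genes Mmp3 and Mmp10 and the monocyte chemokine genes Ccl7 and Ccl2. Mmp3 was at 21.3 to 137 CPM in the osteoarthritic group and 5.00 to 7.34 CPM in the healthy group, a log2 fold change of 3.49 ± 0.65 (SE; edgeR, adjusted p = 0.029), and Ccl7 was at 2.82 to 11 CPM in the osteoarthritic group and 0.648 to 1.26 CPM in the healthy group, at 2.84 ± 0.48 (edgeR, adjusted p = 0.0194). Ccl2 followed at 2.26 ± 0.47 and Mmp10 at 3.17 ± 0.67 (edgeR, adjusted p = 0.0466 and 0.0498). The HA group had 2 of the 37 above healthy cartilage, where 0.146% of all tested genes rose, Mmp3 at 3.51 ± 0.65 and Ccl7 at 2.74 ± 0.48 (edgeR, adjusted p = 0.0453 and 0.0411), with the same healthy libraries as reference. In the coacervate against the osteoarthritic group 1 fell, Ccl7, at 0.478 to 1.78 CPM in the coacervate group and 2.82 to 11 CPM in the osteoarthritic group, a log2 fold change of -2.59 ± 0.47 (edgeR, adjusted p = 0.0497); 0.126% of all tested genes fell there. None passed in the other 3 comparisons, where edgeR gave 0 of 37 with 0, 10 and 6 at an unadjusted p under 0.05 for the HA against the osteoarthritic, the coacervate against the HA and the coacervate against the healthy group, and DESeq2 called 0, 4 and 0. Over all tested genes DESeq2 called 8, 325 and 15 there.

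**Figure D4:**
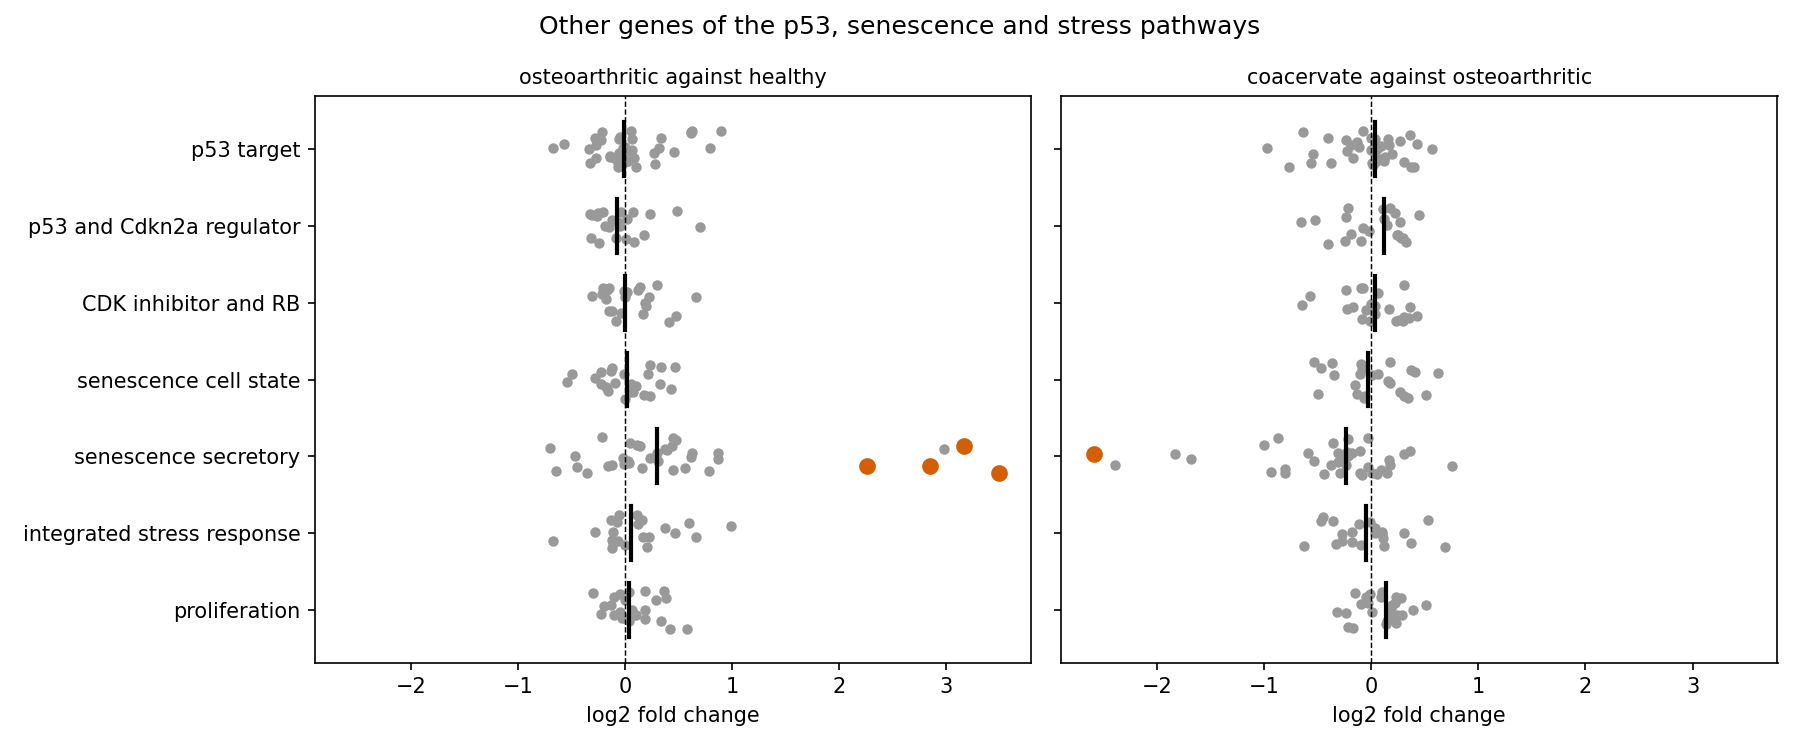
Log2 fold change (x axis) of each tested gene of 7 pathway lists (rows) in the osteoarthritic against the healthy group (left) and the coacervate against the osteoarthritic group (right); orange points passed the edgeR test, grey points did not, and the black bar is the list's median. The 4 orange points at the left panel's right edge are Mmp3, Mmp10, Ccl7 and Ccl2, and the orange point of the right panel is Ccl7 at -2.59.

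These secreted genes moved with some markers of other cells, from lists chosen with earlier results of these data known. The shares of markers called are therefore no test of enrichment. In the osteoarthritic against the healthy group 2 of 19 macrophage markers rose (Trem2 at 2.33 ± 0.32 and Apoe at 2.31 ± 0.36; edgeR, adjusted p = 0.0115 each) and 3 of 12 fibroblast markers rose (Mfap5, Cthrc1 and Dpt, at 1.0 to 1.26), where 0.391% of all tested genes rose. Other macrophage markers did not pass, among them Cd163 at -0.55, Adgre1 at -0.15 and Mrc1 at -0.13, and the median of the 19 was 0.42. In the HA against the healthy group Trem2 (2.50 ± 0.33), Apoe (2.49 ± 0.36) and the fibroblast marker Dpt (1.44 ± 0.26) rose (edgeR, adjusted p = 0.0158, 0.0258 and 0.0453). In the coacervate against the osteoarthritic group Apoe fell beside Ccl7, at -1.98 ± 0.36 (edgeR, adjusted p = 0.0497), with a median of -0.40 over the 19 macrophage markers. Medians there were -0.69 for 18 neutrophil, -0.08 for 12 fibroblast, 0.49 for 16 B cell and 0.92 for 15 skeletal muscle markers. None of the markers of these other lists passed. The summed levels of all 20 macrophage markers listed, 19 of them tested, were 6035 to 7505 CPM in the coacervate group, 9270 to 12870 in the HA group, 8647 to 14357 in the osteoarthritic group and 5590 to 7815 in the healthy group. The part of these macrophage markers in the secreted genes was not tested. The calls were close to the threshold: the count of 4 was 0 when the 8 libraries alone were fitted, and 0 without healthy replicate 2 or without healthy replicate 3, 1 or 2 without any of healthy replicates 1 and 4, osteoarthritic replicates 3 and 4, HA replicates 1 and 3 or coacervate replicates 1 and 2. Dropping osteoarthritic replicate 1 gave 9 calls, and dropping the pair that stood apart, osteoarthritic replicates 2 and 3, gave 6. Over all tested genes these fits called 1122 and 164, beside 72 in the main fit. DESeq2 called 8 secreted genes, and 422 of all tested genes, and limma called at most 1 secreted gene. In the coacervate against the osteoarthritic group, Ccl7 passed in 3 of the 16 fits that left out 1 library (without HA replicate 2 and without osteoarthritic replicate 1 or 4) and missed the threshold in 13, with a log2 fold change of -3.03 to -2.15 over the 16, while DESeq2 called 7 secreted genes there and limma 0. In the HA against the healthy group the count of 2 ran from 0 to 4 over those 16 fits, and DESeq2 called 8. Over all tested genes DESeq2 called 795 in the coacervate against the osteoarthritic group and 158 in the HA against the healthy group. Sizes moved less than calls. In the osteoarthritic against the healthy group the log2 fold change of Ccl7 was 1.75 to 3.37 and that of Mmp3 2.71 to 4.08 over all settings tried, and in the HA against the healthy group they were 1.87 to 3.01 and 2.77 to 3.85.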

How the data were processed

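RNA from rat knee cartilage was poly(A)-selected, made into libraries by a dUTP method and sequenced in pairs, per the labels' protocols. Tools listed in the submitters' processing notes are StringTie 2.1.6, HISAT2 2.2.1 and cutadapt 1.9, with edgeR and DESeq2 beside them and rn6 as the build; which program made the counts, and whether strand was used, is not given in the sources used here. The deposited table gives read counts and FPKM for 23552 genes in 16 libraries, per the file headers. The 6 genes and all gene lists were chosen with earlier results of these data known.

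The counts were tested with edgeR 4.0.16 in R 4.3.3 (quasi-likelihood test, TMM scaling, 1 fit of 4 group means, genes with at least 1 FPKM in at least 4 libraries, Benjamini-Hochberg adjustment, threshold 0.05); normalised CPM come from the same scaling. Cdkn2a and Cdkn2b fell below that filter and are from the same fit on the 23255 genes with a count. The method was tested on simulated data. Alternatives were DESeq2 1.42.0, its size factors, limma 3.58.1 on log2(FPKM + 1) and log2(FPKM + 0.1), an 8-library fit, the replicate number as a block, no filter, each library left out in turn, and osteoarthritic replicates 2 and 3 left out together; applying them to the pathway lists was chosen after seeing the data. Named genes were the 6, a panel of 15, the called genes of each list (at most 4 of the smallest p), and the 3 most correlated genes per member. Correlations used 100000 permutations, two-sided. Counting limits use 3 counts and cover counting error only. Promoter sequences are from RefSeq GRCr8 and share no coordinates with rn6. The values of a single pathway gene are not reported here.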

Additional observations from a re-analysis of the deposited data

Results flagged for a closer look

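Among the 4 coacervate libraries, replicate 2 lay far from the others for Cdkn2b, at 2.65 CPM where the other 3 were at 0.716 to 0.891 CPM; the gap took up 0.91 of the group's range. Chance alone singles out about 1 group in 20 in this way, and 24 groups of 4 libraries were looked at.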

How the results depend on the processing

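None of the 6 genes passed in any comparison under any of the 24 alternatives. Of 852 fold changes of members under an alternative, 797 kept their direction and 55 turned it, in 23 of the 36 results, none of which passed in any setting. Fitting FPKM moved the median of all genes by -0.145 and -0.123 (pseudocounts of 0.1 and 1) in the osteoarthritic against the healthy group, by 0.159 and 0.131 in the HA and by 0.122 and 0.101 in the coacervate against the osteoarthritic group, on the log2 scale. With it Mdm2 turned to -0.10 at both pseudocounts (osteoarthritic against healthy), 0.061 and 0.064 (HA against osteoarthritic) and 0.10 and 0.11 (coacervate against osteoarthritic), and Cdkn2c to -0.012 in both (coacervate against HA). Without osteoarthritic replicates 2 and 3 the osteoarthritic against healthy values were 0.0043 for Cdkn1a, -0.79 for Cdkn2a, -0.035 for Cdkn2c and -0.15 for Mdm2; the HA against osteoarthritic values were -0.12, 1.13, 0.065 and 0.10 for the same genes; and the coacervate against osteoarthritic values were 0.23 for Cdkn2a, 0.075 for Cdkn2c, 0.17 for Mdm2 and 0.29 for Gdf15. The cause was not tested.

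Leaving out 1 library at a time turned the sign of 15 results. Mdm2 ran from -0.014 to 0.11 (osteoarthritic against healthy), -0.089 to 0.04 (coacervate against osteoarthritic) and -0.019 to 0.075 (coacervate against healthy). Cdkn1a ran from -0.039 to 0.15 (HA against osteoarthritic) and -0.053 to 0.35 (coacervate against healthy). Cdkn2b ran from -0.44 to 0.28 and -0.30 to 0.54 in these comparisons. Gdf15 ran from -0.12 to 0.37 (HA against osteoarthritic), -0.43 to 0.055 (coacervate against osteoarthritic) and -0.43 to 0.051 (HA against healthy). Cdkn2c ran from -0.11 to 0.086 (coacervate against HA), -0.043 to 0.15 (HA against healthy) and -0.035 to 0.12 (coacervate against healthy). Cdkn2a ran from -0.17 to 1.63 (HA against healthy) and -1.15 to 0.73 (coacervate against healthy).

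The number of genes called over the whole table was far less steady. In the osteoarthritic against healthy comparison it was 72, and 422 with DESeq2, 21 and 28 with limma (pseudocounts of 1 and 0.1), 8 with the 8 libraries alone, 164 without osteoarthritic replicates 2 and 3, 45 with no filter and 15 to 1122 with 1 library left out. In HA against osteoarthritic it was 0, and 8 with DESeq2, 1 and 1 with limma and 0 to 1 with 1 library left out. In coacervate against osteoarthritic it was 21, and 795 with DESeq2, 0 with either limma fit, with 8 libraries or with no filter, 3 without osteoarthritic replicates 2 and 3, and 0 to 2054 with 1 library left out. In coacervate against HA it was 0, and 325 with DESeq2, 149 without osteoarthritic replicates 2 and 3 and 0 to 11 with 1 library left out. In HA against healthy it was 23, and 158 with DESeq2, 14 and 15 with limma, 390 with 8 libraries, 94 without osteoarthritic replicates 2 and 3, 7 with no filter and 0 to 37 with 1 library left out. In coacervate against healthy it was 0, and 15 with DESeq2 and 0 to 1 with 1 library left out.

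No pairing of the samples by replicate number was seen, though with 4 libraries per group the check cannot exclude one. Of 24 same-numbered pairs, 4 correlated above 0.1 (range -0.386 to 0.211), and 1 sample correlated best with its own number. With the number as a replicate block, 26 genes passed in osteoarthritic against healthy, 0 in coacervate against osteoarthritic and 0 in HA against healthy, no member passed, and the count of secreted genes was 0 in these 3 comparisons, where it was 4, 1 and 2 without the block. Cdkn2b turned to -0.16 in HA against osteoarthritic. Cdkn2a had a mean of 11.56 counts per library and 6 libraries at 0; the part of depth in its wide intervals was not tested.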
